A study of Mus musculus with 9 samples.

Results

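The genes described here are 43 interferon-stimulated antiviral genes and RNA sensors of the mouse, listed by symbol, with no measured value in the rule, out of the 54838 genes counted. These genes were chosen with earlier results of these data known. They comprise 6 RNA sensors and adaptors (Ddx58, Ifih1, Dhx58, Mavs, Tlr3 and Zbp1), the 2 chains of the type I interferon receptor (Ifnar1 and Ifnar2), 4 transcription factors (Irf3, Irf7, Irf9 and Stat2) and 31 effectors. All 43 symbols were found in the count files and all 43 passed the filter on low counts in both comparisons. RNA was counted per gene in 9 libraries to ask how hypochlorous acid (HOCl), the oxidant that neutrophil myeloperoxidase makes, alters transcripts of B16F10, a pigmented melanoma line of C57BL/6 origin. The labels put 3 libraries in untreated B16F10 and 3 in B16F10 given 600 µM HOCl, with the cells plated 4 days earlier and both groups held for 5 h. CD8+ T cells, purified by kit from spleens of adult C57BL/6 mice, gave 2 untreated libraries and 1 with 600 µM HOCl for 5 h. The labels name no genetic change, interferon or virus for any group. B16F10 is 1 line studied at 1 dose and 1 time, and separate cultures or mice are not stated for the replicates, so the spread behind each p-value is that between libraries and may be technical.

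Cells detect viral or misplaced RNA with cytosolic helicases (RIG-I, encoded by Ddx58, and MDA5, encoded by Ifih1) that signal through MAVS on mitochondria, and with the endosomal receptor TLR3. These pathways activate IRF3 and IRF7, which switch on type I interferon genes, and secreted interferon binds the IFNAR1 and IFNAR2 receptor and drives a complex that holds STAT2 and IRF9 to interferon-stimulated response elements (ISREs) in promoters. The induced proteins block viral entry, translation, replication and budding, and several of them (RIG-I, MDA5, IRF7) are themselves parts of the pathway.

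The B16F10 libraries held 45.9 to 61.3 M counts each (M, 1e6). Untreated T cell libraries held 49.9 and 52.1 M, and the HOCl one of T cells 12.8 M. A level is a gene's share of all counts in its library, scaled to 1 M (CPM). The melanocyte markers (Pmel, Dct, Mlana, Tyr, Tyrp1, Mitf and Sox10) summed to 24046 to 25084 CPM in the 6 B16F10 libraries and none was at 0. The 11 T cell markers summed to 4634 and 4534 CPM in the untreated T cell libraries, to 5.53 to 7.12 CPM in 5 B16F10 libraries and to 39.3 CPM in B16F10 HOCl replicate 3. The T cell HOCl library stood apart: 37.4% of its counts were mitochondrial transcripts (0.500 to 2.11% in the others), its melanocyte markers were at 27.0% of the level in untreated B16F10 and its T cell markers at 14.3% of the level in untreated T cells on the same CPM scale, so its markers did not match its label. The library labelled T cell HOCl entered neither of the comparisons tested and is described last.

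Promoter sequence was available for 33 of the 43 genes (36 promoters, RefSeq, build GRCm38.p6, from 250 bases before to 50 after each start). Dhx58, Zbp1, Oas2, Mx1, Mx2, Usp18, Parp9, Parp14, Ifi27 and Rtp4 had no entry. An ISRE core (GAAANNGAAA on either strand, where N is any base) was present in 11 of the 36 promoters (30.6%), against 1131 of all 32851 promoters of the same length (3.44%). By gene, the core was found in 9 of 25 that fell with HOCl in B16F10 and in 2 of 8 that did not fall (Stat2 and Oas3). Promoters with the ISRE core are shown 5′ to 3′ on the gene's strand, 1 per family with a match and Ifit3b beside Ifit3, because the ISRE is the element that interferon-stimulated promoters are known for. Capitals mark the ISRE core. The stretches end at the base before the RefSeq start, except that of Ddx58, whose core starts at base 3 of the transcript.
Ddx58 (chr4:40239804-40239833, minus strand): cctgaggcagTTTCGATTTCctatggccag
Stat2 (chr10:128270248-128270497, plus strand): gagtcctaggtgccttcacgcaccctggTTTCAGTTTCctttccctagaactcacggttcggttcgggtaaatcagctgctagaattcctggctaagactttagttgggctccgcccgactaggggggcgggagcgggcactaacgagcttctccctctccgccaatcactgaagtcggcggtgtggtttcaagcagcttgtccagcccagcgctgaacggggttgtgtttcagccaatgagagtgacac
Ifit3 (chr19:34583279-34583528, plus strand): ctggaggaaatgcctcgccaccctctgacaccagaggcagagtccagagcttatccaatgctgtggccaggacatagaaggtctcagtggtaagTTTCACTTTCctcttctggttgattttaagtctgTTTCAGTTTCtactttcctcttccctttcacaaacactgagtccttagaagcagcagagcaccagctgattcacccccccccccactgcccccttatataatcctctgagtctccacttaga
Oas1a (chr5:120907526-120907775, minus strand): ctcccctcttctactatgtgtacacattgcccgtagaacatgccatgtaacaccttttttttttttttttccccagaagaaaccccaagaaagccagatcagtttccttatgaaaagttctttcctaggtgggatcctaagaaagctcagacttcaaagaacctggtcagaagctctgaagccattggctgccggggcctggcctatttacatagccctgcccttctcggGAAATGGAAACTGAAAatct
Isg15 (chr4:156200819-156201068, minus strand): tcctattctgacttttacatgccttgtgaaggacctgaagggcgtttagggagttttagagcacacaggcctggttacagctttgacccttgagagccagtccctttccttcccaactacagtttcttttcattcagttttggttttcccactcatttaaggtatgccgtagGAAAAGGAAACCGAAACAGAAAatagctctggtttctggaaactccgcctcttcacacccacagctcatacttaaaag
Rsad2 (chr12:26456453-26456702, minus strand): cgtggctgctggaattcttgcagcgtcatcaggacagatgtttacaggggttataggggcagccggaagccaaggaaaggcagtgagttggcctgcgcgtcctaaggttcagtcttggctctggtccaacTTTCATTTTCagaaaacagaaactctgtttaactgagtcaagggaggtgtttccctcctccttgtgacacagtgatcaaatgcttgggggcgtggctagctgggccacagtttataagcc
Bst2 (chr8:71537473-71537722, minus strand): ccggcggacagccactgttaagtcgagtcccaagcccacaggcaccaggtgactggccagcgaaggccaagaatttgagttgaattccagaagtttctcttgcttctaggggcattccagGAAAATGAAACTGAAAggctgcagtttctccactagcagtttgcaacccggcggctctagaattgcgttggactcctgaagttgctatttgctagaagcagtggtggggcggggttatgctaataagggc
Ifit3b (chr19:34607707-34607956, plus strand): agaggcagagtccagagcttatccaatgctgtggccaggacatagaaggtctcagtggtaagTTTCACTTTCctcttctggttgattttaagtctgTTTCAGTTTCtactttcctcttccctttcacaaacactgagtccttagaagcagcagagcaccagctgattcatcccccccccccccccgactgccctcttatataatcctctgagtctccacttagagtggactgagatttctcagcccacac
Adjoining or overlapping cores were written as 1 run of capitals: the Isg15 promoter held 3 cores that overlap, the Oas1a and Bst2 promoters 2 each. The Ifit3 and Ifit3b promoters held 2 separate cores in the same spacing and were identical at 258 of 260 aligned bases (99.2%). A match describes these letters and does not show that a factor bound there.

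In B16F10, 35 of the 43 genes fell with HOCl, 2 rose (Mavs and Ifnar1) and 6 did not pass the test (Ifnar2, Irf3, Stat2, Ifit2, Oas3 and Epsti1). Over all 16082 genes tested, 28.3% passed the test, 14.7% higher and 13.5% lower. The falls ran from 1.19-fold (Dtx3l) to 2.63-fold (Oasl2), with 10 genes at least 2-fold lower, 11 between 1.5-fold and 2-fold and 14 below 1.5-fold. On the log2 scale the median of the 43 was -0.57, with quartiles of -0.97 and -0.39, where the median over all genes tested was -0.01. Replicate values did not overlap between the groups for 38 genes, 35 of them lower and 3 higher with HOCl, against 18.4% lower and 25.2% higher among all genes tested. Testing used edgeR's quasi-likelihood F test with Benjamini-Hochberg adjustment over all genes tested and a threshold of 0.05, and every adjusted p below comes from it unless another tool is named. With all 9 libraries in 1 fit, which pools the spread with the T cell libraries, 9 of the 43 genes passed, all of them lower, and the median was -0.57. Most of the 4544 calls over all genes were lost in that fit too, and the count left is given at the end. In these bulk libraries, fewer cells carrying a transcript and less of it per cell cannot be told apart.

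**Figure D1:**
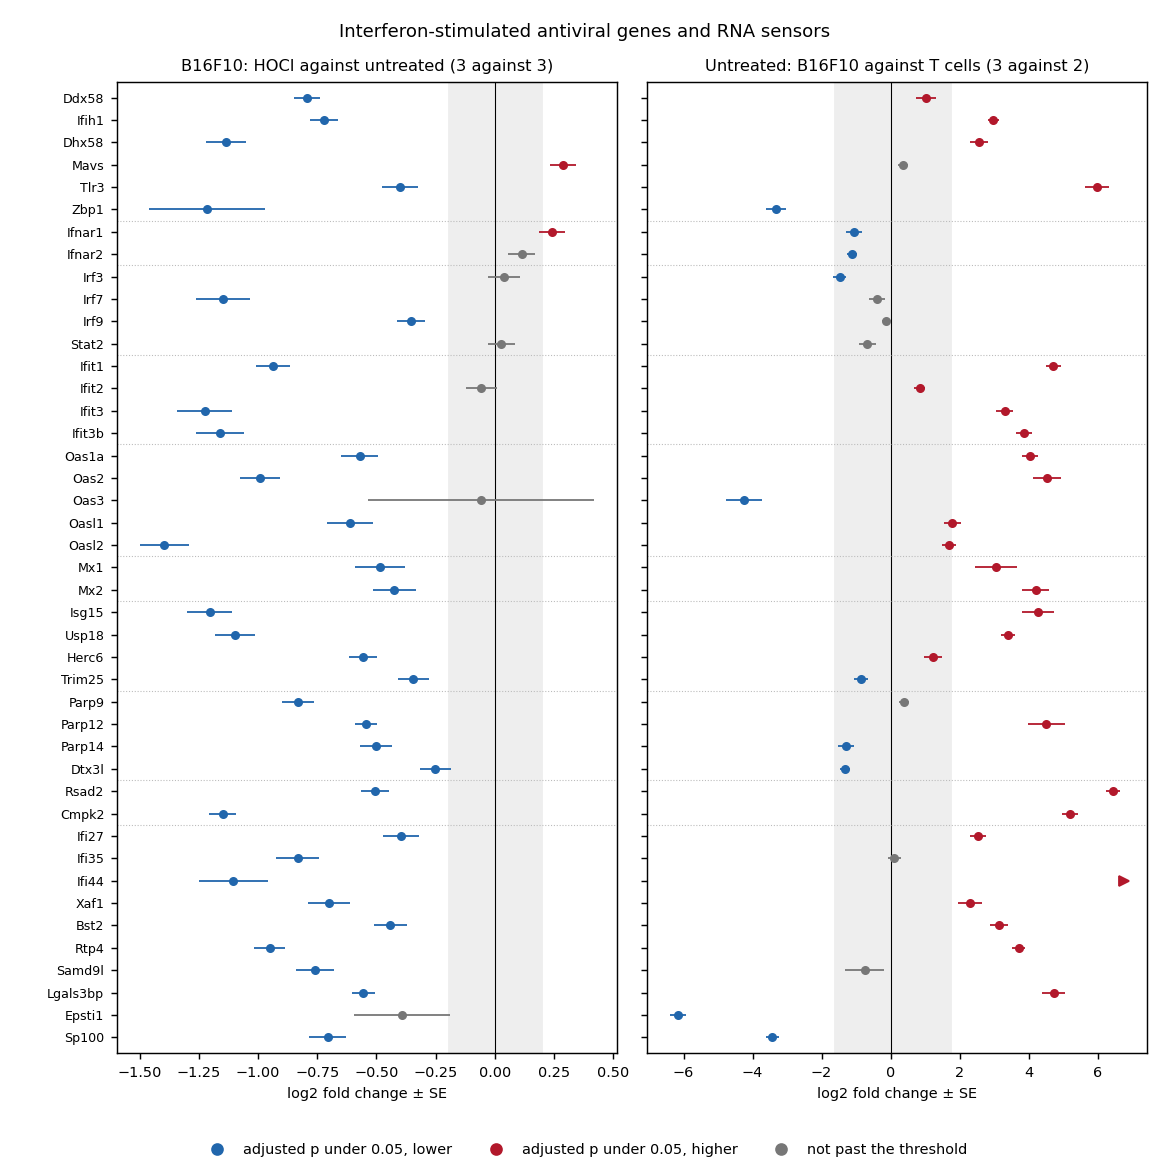
Log2 fold change ± SE of the 43 genes (rows, grouped by role) for HOCl against untreated B16F10 (left) and untreated B16F10 against untreated T cells (right). Blue points passed the test as lower, red as higher and grey did not pass; the pale band spans the quartiles of all genes tested, and the arrow for Ifi44 is a lower bound because it had no counts in untreated T cells. On the left, 35 points are blue and 2 red; on the right, 26 are red and 10 blue.

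Of the 6 sensors and adaptors, 5 fell and Mavs rose. Ddx58 (RIG-I, which binds triphosphate-bearing RNA) stood at 147, 159 and 154 CPM in untreated B16F10 and at 86.8, 87.3 and 96.3 CPM with HOCl. All 3 treated libraries lay below all untreated ones, a log2 fold change of -0.79 ± 0.05 (adjusted p = 3.24e-06). Ifih1 (MDA5, the sensor of long double-stranded RNA) went from 53.0, 53.5 and 55.3 CPM to 33.4, 31.5 and 35.2 CPM, a log2 fold change of -0.72 ± 0.06 (adjusted p = 8.19e-06). Dhx58 encodes LGP2, a relative of both that lacks their signalling domains. It stood at 26.4, 21.8 and 23.6 CPM untreated and 11.2, 11.0 and 11.0 CPM treated, a log2 fold change of -1.14 ± 0.08 (adjusted p = 5.23e-06).

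Tlr3, the endosomal receptor for double-stranded RNA, fell from 27.8, 33.6 and 30.7 CPM to 23.4, 22.8 and 24.8 CPM (-0.40 ± 0.08, adjusted p = 0.00215). Zbp1, which senses left-handed nucleic acid and can start necroptosis, was the scarcest sensor in this line, at 1.61, 1.91 and 1.31 CPM untreated and 0.674, 0.761 and 0.682 CPM with HOCl (-1.22 ± 0.24, adjusted p = 0.00311). Mavs, the mitochondrial adaptor shared by RIG-I and MDA5, moved the other way. It was counted at 42.7, 45.3 and 45.7 CPM in untreated libraries and 56.6, 53.9 and 56.0 CPM in treated ones, a rise of 0.29 ± 0.05 on the log2 scale (adjusted p = 0.00208), with no overlap between the groups.

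The receptor chains were higher, not lower, in treated cells, though only 1 passed. Ifnar1 rose from 79.5, 89.9 and 86.2 CPM to 105, 102 and 100.3 CPM (0.24 ± 0.05, adjusted p = 0.00664). Ifnar2 stood at 33.7, 33.6 and 34.1 CPM untreated and 38.2, 37.2 and 36.3 CPM treated; its groups also did not overlap, but the difference (0.11 ± 0.06) did not pass (adjusted p = 0.157).

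Of the 4 transcription factors, 2 fell and 2 did not pass. Irf3, present in cells before infection and activated by phosphorylation, stood at 52.5, 44.6 and 45.9 CPM untreated and 49.2, 49.4 and 51.1 CPM with HOCl, overlapping values with a log2 fold change of 0.04 ± 0.07 (adjusted p = 0.713). Irf7, the interferon-inducible factor that amplifies the response, fell from 23.9, 18.3 and 18.1 CPM to 9.90, 8.56 and 9.35 CPM (-1.15 ± 0.11, adjusted p = 3.38e-05). Irf9, the DNA-binding part of the complex with STAT2, fell from 73.1, 73.1 and 68.8 CPM to 55.0, 55.2 and 61.3 CPM (-0.35 ± 0.06, adjusted p = 8.98e-04). Its partner Stat2 showed no difference that passed, at 40.0, 42.97 and 43.8 CPM against 44.4, 43.5 and 43.7 CPM (0.03 ± 0.06, adjusted p = 0.755), and its promoter held an ISRE core. Whether the log2 fold changes of these factors differ from one another was not tested.

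**Figure D2:**
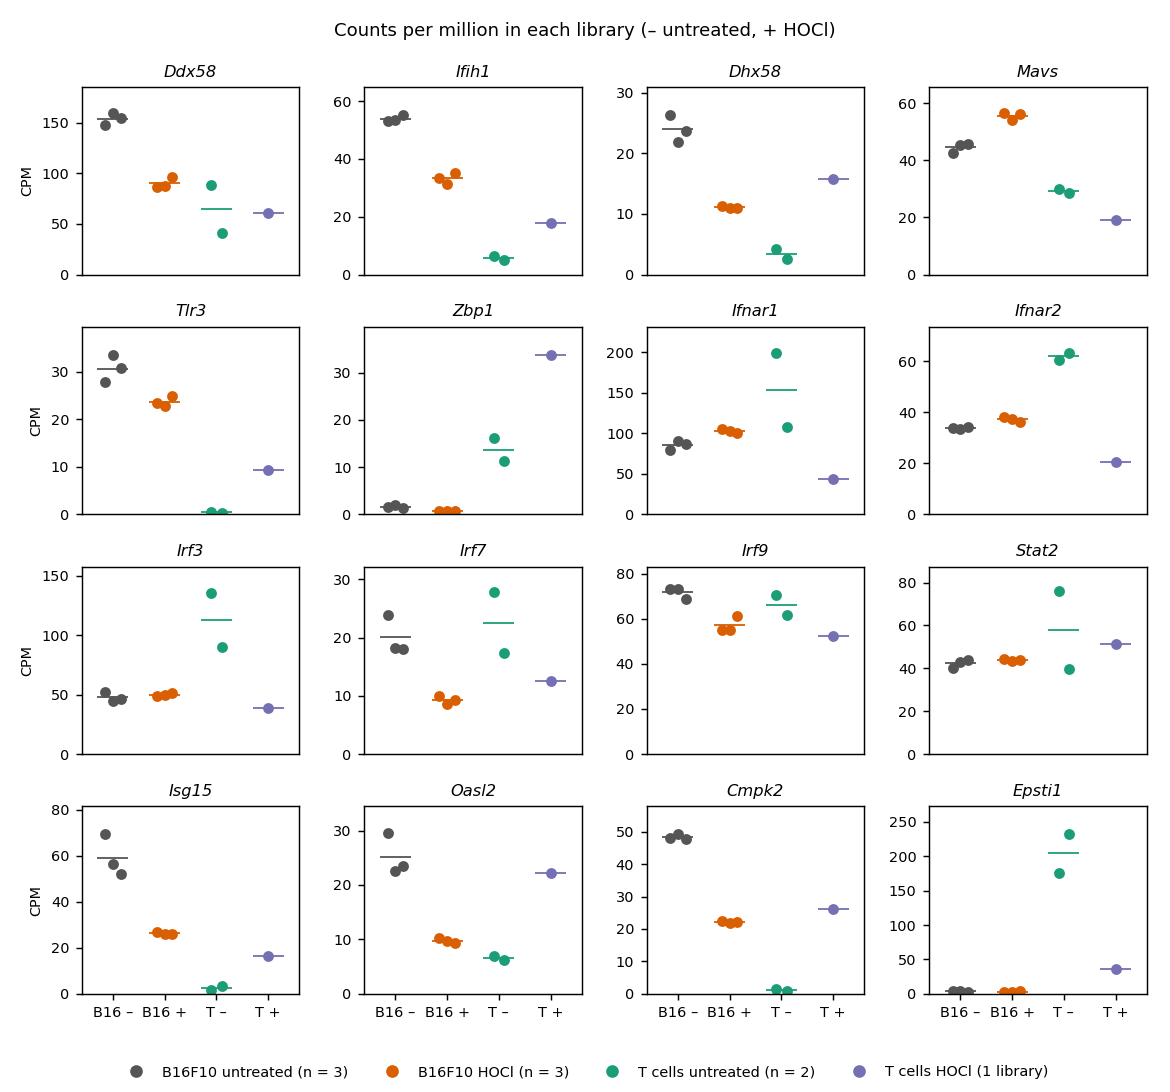
CPM in each of the 9 libraries (points; short line, group mean) for the 6 sensors and adaptors, the receptor chains, the 4 transcription factors and 4 effectors, with separate vertical axes starting at 0. The treated B16F10 points lie below the untreated ones for Ddx58, Ifih1, Dhx58, Tlr3, Zbp1, Irf7, Irf9, Isg15, Oasl2 and Cmpk2, above them for Mavs, Ifnar1 and Ifnar2, and overlap them for Irf3, Stat2 and Epsti1.

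Among the 31 effectors, 28 fell and 0 rose, and their median was -0.61 on the log2 scale. The tests at an unadjusted p under 0.05 and DESeq2 also gave 0 higher. The IFIT genes, whose products bind viral RNA and curb its translation, lie in 1 cluster on chromosome 19 (GENCODE M21, GRCm38), and 3 of the 4 fell. Ifit3 (chr19:34583531-34588731) stood at 101, 79.2 and 74.7 CPM untreated and 40.1, 32.4 and 38.7 CPM with HOCl (-1.23 ± 0.12, adjusted p = 6.14e-05). Ifit1, which recognises RNA caps without methylation, fell from 101, 87.7 and 83.3 CPM to 49.6, 45.4 and 49.5 CPM (-0.94 ± 0.07). Ifit3b, a near-identical copy of Ifit3, fell from 33.0, 27.6 and 24.8 CPM to 12.9, 12.2 and 13.9 CPM (-1.16 ± 0.10); how reads matching both copies were assigned is not given, so the split between them is uncertain. Ifit2 (chr19:34550694-34576419) was the exception, at 77.4, 87.2 and 92.1 CPM untreated and 85.6, 80.0 and 85.7 CPM treated, with overlapping groups (-0.06 ± 0.06, adjusted p = 0.554). Without untreated replicate 1, its lowest untreated library, Ifit2 passed as lower (log2 fold change -0.12, adjusted p = 0.0401).

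The OAS enzymes make the oligoadenylate messenger that activates RNase L. Of the 5 OAS and OAS-like genes counted here, all on chromosome 5, 4 fell. Oasl2 (chr5:114896936-114912234), an OAS-like gene, showed the largest fall of the 43 genes. It stood at 29.6, 22.6 and 23.5 CPM untreated and 10.2, 9.77 and 9.41 CPM with HOCl (-1.40 ± 0.10, adjusted p = 5.48e-06), and no treated library reached the untreated range. Oas2 fell from 29.8, 32.7 and 27.8 CPM to 16.4, 13.9 and 16.03 CPM (-0.99 ± 0.08), Oasl1 by 0.61 and Oas1a by 0.57 on the log2 scale. Oas3 was barely present, at 0.293, 0.231 and 0.567 CPM untreated and 0.286, 0.228 and 0.545 CPM treated, so a change of -0.06 ± 0.48 (adjusted p = 0.944) carried a wide error. The OAS genes are a multigene family, and reads shared between copies could be split between them.

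Both Mx genes, dynamin-like GTPases that trap viral nucleoproteins, fell. Mx1 stood at 8.57, 8.94 and 7.41 CPM untreated and 6.41, 5.78 and 6.00 CPM with HOCl (-0.48 ± 0.11, adjusted p = 0.00504). Mx2, which the GENCODE annotation lists as a polymorphic pseudogene, stood at 12.8, 12.0 and 11.0 CPM and 9.51, 8.41 and 9.33 CPM (-0.42 ± 0.09, adjusted p = 0.00479). Neither gene's groups overlapped. As background, most inbred mouse strains, C57BL/6 among them, carry Mx alleles that make no working protein.

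Isg15, Usp18, Herc6 and Trim25, grouped here as ISG15 and ubiquitin ligases, all fell. Isg15 itself (chr4:156199424-156200818), the ubiquitin-like modifier, went from 69.4, 56.4 and 51.9 CPM to 26.8, 25.9 and 26.0 CPM (-1.21 ± 0.09, adjusted p = 7.75e-06). Usp18 removes ISG15 from proteins and restrains signalling at the interferon receptor; it fell from 98.7, 79.0 and 79.3 CPM to 42.6, 38.5 and 41.5 CPM (-1.10 ± 0.08). Herc6, the main ISG15 ligase of the mouse, fell by 0.56 on the log2 scale. Trim25, the ubiquitin ligase known for its action on RIG-I, had the smallest fall of the 4, from 47.4, 54.8 and 52.8 CPM to 39.7, 42.2 and 42.5 CPM (-0.34 ± 0.06, adjusted p = 0.00207).

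The ADP-ribosyltransferase genes Parp9, Parp12 and Parp14 and the ubiquitin ligase gene Dtx3l all fell. Parp9 stood at 59.6, 56.5 and 57.2 CPM untreated and 34.9, 29.8 and 34.4 CPM with HOCl (-0.83 ± 0.07, adjusted p = 7.90e-06). Dtx3l, whose product pairs with PARP9 and whose gene lies head to head with Parp9 on chromosome 16, stood at 48.7, 47.4 and 49.8 CPM and 40.3, 39.2 and 45.5 CPM (-0.25 ± 0.06, adjusted p = 0.0120). Among the 43 genes, Dtx3l was the only call that leaving out 1 library ended: its adjusted p was 0.0632 without HOCl replicate 1 and 0.0738 without HOCl replicate 2. The 2 genes overlap on opposite strands, and with the strand setting of the counting not given, reads from the shared stretch cannot be told apart. Parp12 fell from 203, 192 and 195 CPM to 139, 139 and 134 CPM (-0.54 ± 0.05), and Parp14 by 0.50 on the log2 scale.

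Viperin (Rsad2) turns CTP into a nucleotide that stops viral RNA synthesis, and CMPK2, a mitochondrial nucleotide kinase, supplies that pathway. The 2 genes are divergent neighbours 12.8 kb apart on chromosome 12. Rsad2 (chr12:26442746-26456452) fell from 141, 134 and 124 CPM to 97.1, 89.4 and 99.8 CPM (-0.51 ± 0.06, adjusted p = 1.04e-04). Cmpk2 (chr12:26469204-26479837) fell from 47.9, 49.2 and 47.8 CPM to 22.6, 21.7 and 22.2 CPM (-1.15 ± 0.06, adjusted p = 2.01e-07). The treated libraries lay below the untreated ones for both.

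Of the 10 remaining effectors, 9 fell. Ifi44 had the largest fall among them, from 7.60, 8.44 and 7.17 CPM to 3.96, 4.18 and 2.84 CPM (-1.10 ± 0.15, adjusted p = 2.07e-04). Rtp4, a chaperone of membrane receptors that interferon induces, fell from 64.5, 56.5 and 56.6 CPM to 31.2, 30.2 and 32.2 CPM (-0.95 ± 0.07). Lgals3bp, a secreted glycoprotein that binds galectins, had the highest CPM of the 43 in untreated B16F10, at 585, 589.8 and 601 CPM, and fell to 429, 407 and 396 CPM (-0.56 ± 0.05). Bst2 (tetherin), which holds budding virions at the cell surface, fell from 282, 249.8 and 229 CPM to 195, 193 and 182 CPM (-0.44 ± 0.07). Log2 fold changes of the other 5 that fell were -0.83 (Ifi35), -0.76 (Samd9l), -0.71 (Sp100, of nuclear bodies), -0.70 (Xaf1, a binding partner of the apoptosis inhibitor XIAP) and -0.39 (Ifi27).

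Epsti1 did not pass, at 3.86, 3.32 and 2.99 CPM untreated and 2.00, 2.47 and 3.45 CPM with HOCl (-0.39 ± 0.20, adjusted p = 0.177). The high treated value was replicate 3, the library with 39.3 CPM of T cell markers, and Epsti1 was far higher in untreated T cells (176 and 232 CPM). Without that library Epsti1 passed as lower (log2 fold change -0.63, adjusted p = 0.0411), and 36 of the 43 genes then fell and 2 rose. The part of T cell transcripts in the Epsti1 value of replicate 3 was not tested. Replicate 3 was the highest of the treated libraries for 18 of the 43 genes. Other cell types' markers stayed low in all 6 B16F10 libraries: the 8 macrophage markers summed to 6.56 to 8.29 CPM, the 7 dendritic cell markers to 7.82 to 11.5 CPM, the 5 B cell markers to 2.54 to 3.80 CPM and the 6 fibroblast markers to 5.45 to 9.39 CPM. In each B16F10 library 2 to 4 macrophage and 2 to 5 dendritic cell markers were at 0. Untreated replicate 1 was the highest untreated library for 23 of the 43 genes, and without it 36 fell and 2 rose. For these counts of highest libraries (18 and 23), no share over all genes was computed.

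Ratios between genes of 1 family or locus were taken within each library, where scaling cancels out. The 6 pairs were chosen after their values were seen, and no share over other pairs was computed. Ifit3 over Ifit2 was 1.31, 0.908 and 0.811 in untreated libraries and 0.469, 0.405 and 0.452 in treated ones, with every treated ratio below every untreated one. Ifit1 over Ifit2 went from 1.07 ± 0.205 to 0.575 ± 0.00637 (mean ± SD, n = 3 in each group). Cmpk2 over Rsad2 went from 0.364 ± 0.0223 to 0.233 ± 0.0102, and Parp9 over Dtx3l from 1.19 ± 0.0383 to 0.795 ± 0.0632. Oasl2 over Oasl1 fell in the same way, from 2.98 ± 0.359 to 1.74 ± 0.136, and Oas2 over Oas1a from 0.494 ± 0.0752 to 0.364 ± 0.0223. For all 6 ratios the treated and untreated values did not overlap; the exact two-sided permutation test gave p = 0.1 for each, and 0.1 after adjustment over the 6, which is the smallest value that 3 against 3 libraries can give and cannot reach 0.05.

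Genes around the 43 in the same pathway were counted from lists of named genes, also chosen with earlier results of these data known. None of 11 interferon genes had enough counts to be tested in B16F10. Ifnb1, the interferon made first by most cells, had 4, 2 and 5 counts in untreated libraries and 3, 0 and 0 with HOCl, and the 11 genes together had 5 to 9 counts per untreated library and 0 to 8 per treated one. In the JAK-STAT list, 3 of 13 genes fell and 1 rose, with a median of 0.02. Over all genes tested, 13.5% fell and 14.7% rose. Socs1 (-0.84 ± 0.18) and Ptpn6 (-0.56 ± 0.07), which restrain this signalling, fell, whereas Socs3, Ptpn1, Ptpn2, Ptpn11 and Pias1 of the same list did not pass. Stat3, a signal carrier of several cytokine receptors, fell as well (-0.15 ± 0.05, adjusted p = 0.0422). That call ended when untreated replicate 2 or 3 or any 1 of the HOCl libraries was left out (adjusted p between 0.108 and 0.181). It also ended with scaling by library totals alone (adjusted p = 0.0900) and with no filter on low counts (adjusted p = 0.0587). Jak1, a kinase bound to the receptor, rose (0.21 ± 0.06, adjusted p = 0.0174), a call lost without HOCl replicate 2 (adjusted p = 0.0723) or 3 (adjusted p = 0.0814), and its partner Tyk2 did not pass (0.07 ± 0.06, adjusted p = 0.432).

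Of 18 adaptors and kinases that act between sensors and IRFs, 7 rose and 1 fell, with a median of 0.16. The shares over all genes tested were 14.7% higher and 13.5% lower. Nlrx1, a mitochondrial protein that binds MAVS, rose by 0.55 ± 0.10, Ticam1, the adaptor of TLR3, by 0.46 ± 0.06 and Rnf135, a ligase for RIG-I, by 0.41 ± 0.07 on the log2 scale. The calls of Irak4 and Azi2, also among the rises, ended without HOCl replicate 3 (adjusted p = 0.0656 and 0.123), and that of Azi2 also without HOCl replicate 2 (adjusted p = 0.0795). Tmem173 (STING, of the DNA-sensing branch) fell (-0.27 ± 0.05), and the IRF3 kinase Tbk1 did not pass (0.12 ± 0.06, adjusted p = 0.139). Among 9 other IRF and IRF2-binding genes, 8 were tested, 3 rose and 1 fell. Irf4, a factor known from lymphocytes and pigment cells, rose from 0.277, 0.189 and 0.370 CPM to 1.10, 0.913 and 0.799 CPM (1.72 ± 0.35, adjusted p = 0.00327), Irf2bp2 by 0.42 ± 0.05 and Irf2bp1 by 0.19 ± 0.06 (adjusted p = 0.0404), while Irf1 fell (-0.33 ± 0.08, adjusted p = 0.00670). The Irf2bp1 call ended in each fit that left out untreated replicate 2 or 3 or 1 of the HOCl libraries (adjusted p between 0.0924 and 0.146).

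A further 41 interferon-stimulated genes outside the 43, chosen with earlier results of these data known, were tested in 39 cases. Of these, 29 fell and 1 rose, with a median of -0.46, against 13.5% lower and 14.7% higher among all genes tested. Eif2ak2, the RNA-dependent kinase PKR, fell from 71.3, 73.9 and 71.0 CPM to 48.2, 46.7 and 50.2 CPM (-0.60 ± 0.05, adjusted p = 1.26e-05). The largest falls were in Gm4951 (-2.08 ± 0.44, at 0.505, 0.420 and 0.567 CPM untreated), Phf11d (-1.37 ± 0.17) and Apol9b (-1.15 ± 0.13), and the 1 rise was in Trafd1 (0.21 ± 0.07, adjusted p = 0.0306). That rise was lost in each fit without untreated replicate 2 or 3 or any 1 HOCl library. Among the falls, the calls of Adar, Shisa5, Sp110, Psmb9, Ifitm2, Trim21 and Psmb10 also ended in some fits that left out 1 library. The Adar and Shisa5 calls ended in the same fits as that of Trafd1, and with scaling by library totals alone. With that scaling the Psmb9 call ended too (adjusted p = 0.0619), and with no filter on low counts that of Shisa5 (adjusted p = 0.0593).

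**Figure D3:**
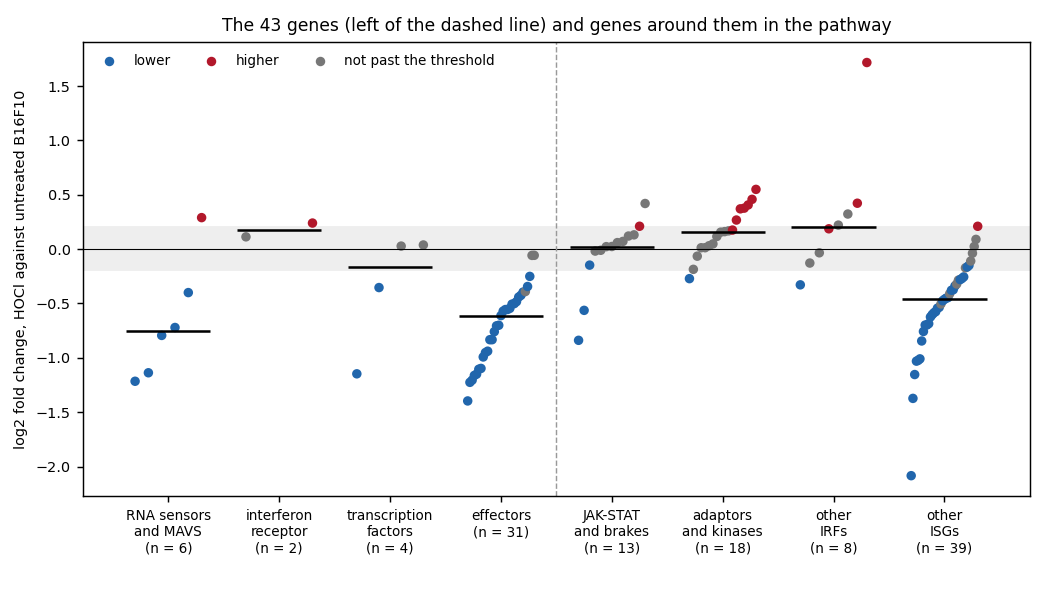
Log2 fold change with HOCl in B16F10 for each tested gene, sorted within its list; the 43 genes stand left of the dashed line and the pathway lists right of it. Blue points fell, red rose and grey did not pass; black lines are list medians and the pale band spans the quartiles of all genes tested. The effectors (median -0.61) and other interferon-stimulated genes (median -0.46) lie mostly below the band, and the adaptors and kinases (median 0.16) do not.

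In the authors' deposited table for B16F10, which names its groups by number and not by treatment, all 43 genes had the same sign as here. It gave 35 negative and 2 positive log2 fold changes past an adjusted p of 0.05, and all 37 were also called here. In the authors' deposited table the median over the 43 was -0.54.

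Untreated B16F10 carried higher levels of most of the 43 transcripts than untreated T cells, before any HOCl. In this comparison 26 genes were higher in B16F10, 10 were lower and 7 did not pass; the median was 1.79 on the log2 scale (the same with Ifi44 at its lower bound) against -0.02 over all 18352 genes tested. Of all genes tested, 71.1% passed, 35.8% higher and 35.4% lower, so most genes differ between these cell types. Library values did not overlap for 29 of the 43 as higher in B16F10 and for 10 as lower, against 46.0% and 35.8% of all genes tested. The untreated B16F10 libraries serve in both comparisons. Cell type here is bound up with culture, tissue of origin and isolation, and these cannot be told apart. Scaling by library totals alone moved the median of all genes by 0.24 on the log2 scale.

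Ifi44 had 0 counts in both T cell libraries and was at least 108-fold higher in B16F10, taking 3 counts per T cell library as the floor. Among genes counted in both cell types and higher in B16F10, the largest distance was in Rsad2, at 1.26 and 1.31 CPM in the untreated T cell libraries against 141, 134 and 124 CPM in B16F10 (6.44 ± 0.20, adjusted p = 8.33e-06). Next came Tlr3, at 0.561 and 0.269 CPM in T cells (5.97 ± 0.35), Cmpk2, at 1.32 and 0.922 CPM (5.19 ± 0.22), and Lgals3bp, at 25.6 and 12.7 CPM (4.72 ± 0.34). All 4 IFIT genes, both Mx genes and 4 of 5 OAS genes were higher in B16F10. Ddx58 was higher as well (1.02 ± 0.29, adjusted p = 0.0212), but its T cell values spread widely (88.2 and 41.2 CPM) and the call was lost without untreated B16F10 replicate 1 or 2 (highest adjusted p 0.0590).

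Both receptor chains were lower in B16F10 than in T cells. Ifnar1 stood at 199 and 108 CPM in T cells (-1.07 ± 0.23) and Ifnar2 at 60.5 and 63.4 CPM (-1.12 ± 0.14). The other 8 genes lower in B16F10 were Epsti1 (-6.17 ± 0.24), Oas3 (-4.25 ± 0.52), Sp100 (-3.43 ± 0.19), Zbp1 (-3.32 ± 0.28), Irf3 (-1.48 ± 0.19), Dtx3l (-1.32 ± 0.15), Parp14 (-1.29 ± 0.23) and Trim25 (-0.86 ± 0.20). Oas3, near the limit of detection in B16F10, was counted at 7.95 and 3.88 CPM in T cells, and it was the only OAS gene higher there. Mavs, Irf7, Irf9, Stat2, Parp9, Ifi35 and Samd9l did not pass, and 5 of these calls depended on the setting. Stat2 (-0.68 ± 0.25, adjusted p = 0.0507) passed as lower in B16F10 with DESeq2 size factors, the DESeq2 test, a filter of 1 CPM, all 9 libraries in 1 fit and without T cell replicate 2 (highest adjusted p 0.0347). Mavs (0.36 ± 0.14, adjusted p = 0.0597) and Parp9 (0.38 ± 0.15, adjusted p = 0.0527) passed as higher with library totals alone (adjusted p = 0.0109 and 0.0150), with all 9 libraries in 1 fit and without either T cell library. Irf7 (-0.40 ± 0.24) passed as lower without T cell replicate 2 (adjusted p = 0.00367). For Samd9l the T cell libraries disagreed (202 and 40.9 CPM), and its log2 fold change went from -0.75 ± 0.56 to 0.73 without T cell replicate 1 and to -1.42 without T cell replicate 2, past the threshold in both.

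Of the genes around them, Jak1 (-3.31 ± 0.21), Tyk2 (-1.30 ± 0.38), Tbk1 (-0.79 ± 0.16) and Irf1 (-3.08 ± 0.14) were lower in B16F10 and Eif2ak2 was higher (2.42 ± 0.54). Tyk2 stood at 149 and 51.7 CPM in the T cell libraries, and its call ended without untreated B16F10 replicate 1 (adjusted p = 0.0649) and with scaling by library totals alone (adjusted p = 0.0561). The Tbk1 call ended with a replicate block (adjusted p = 0.0698). Divided by exon length, so that genes can be compared, the levels in untreated B16F10 were led by Ifi27 at 294 ± 35.5 CPM per kb, Bst2 at 281 ± 29.5 and Lgals3bp at 208 ± 2.80 (mean ± SD, n = 3). The means of Ifi27 and Bst2 differed by less than their SDs. Isg15 followed at 78.4 ± 12.0 CPM per kb, and Oas3 was last at 0.0514 ± 0.0252. In untreated T cells Epsti1 led at 87.9 ± 16.9 CPM per kb, followed by Sp100 at 49.7 ± 14.1 (n = 2). The Epsti1 and Sp100 values did not overlap, whereas the spread of Sp100 overlapped that of Ifi27, next at 43.2 ± 12.5.

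**Figure D4:**
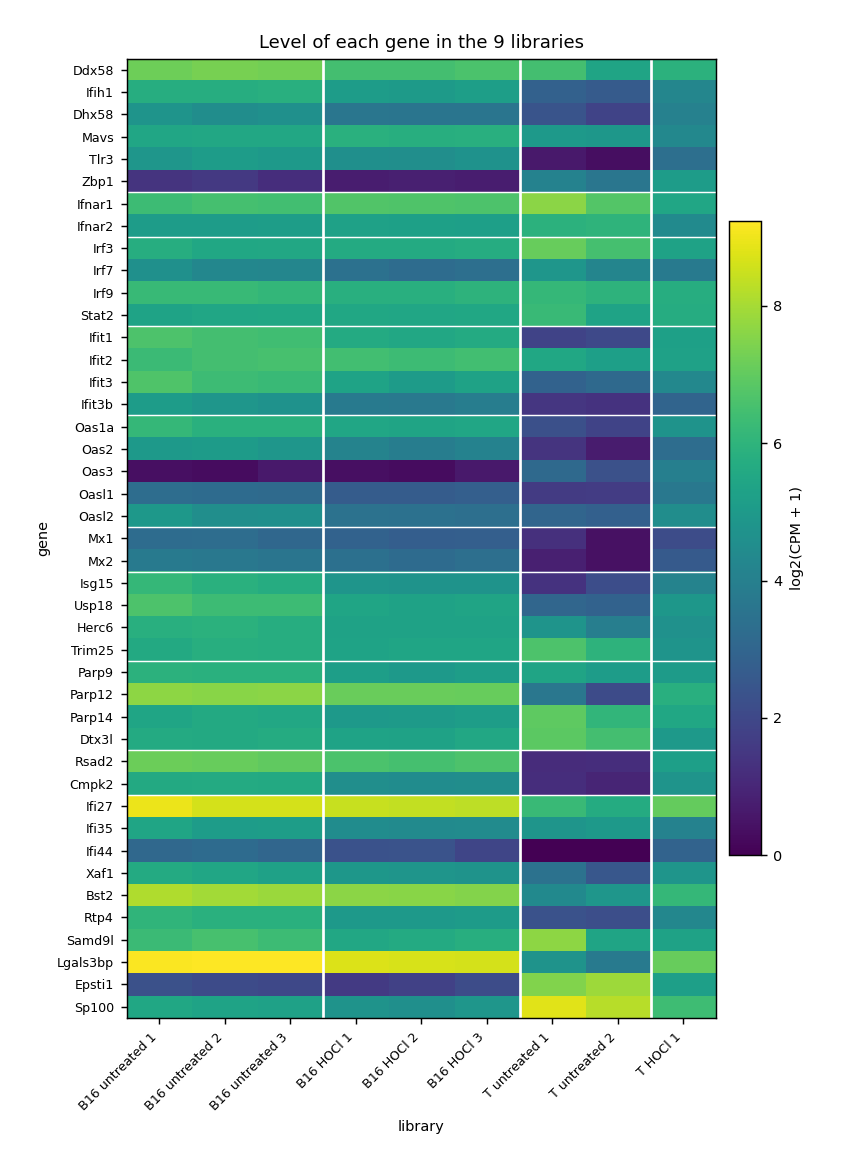
Level of each of the 43 genes (rows, grouped by role) in each of the 9 libraries (columns), as log2(CPM + 1) from dark (low) to yellow (high); values compare libraries within a row and are not scaled by gene length. Ifi27, Bst2 and Lgals3bp are bright in the 6 B16F10 libraries, Epsti1 and Sp100 in the 2 untreated T cell libraries, and the T cell HOCl library lies between for many genes.

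The single library labelled T cell HOCl gives values only, with no test. Of the 43 genes, 25 stood above both untreated T cell libraries, 14 below both and 4 between. Cmpk2 was at 26.3 CPM against 1.32 and 0.922 CPM untreated, Rsad2 at 35.8 CPM against 1.26 and 1.31 CPM, and Tlr3 at 9.26 CPM against 0.561 and 0.269 CPM. All 3 genes, which fell with HOCl in B16F10, stood above both untreated T cell libraries here. Ifnar1 went the other way, at 43.6 CPM against 199 and 108 CPM. Over counts outside mitochondrial transcripts, a scale chosen after seeing the data, 31 genes stood above both, 8 below both and 4 between. For 2751 genes with at least 50 mean counts, every treated B16F10 value lay below the untreated ones. On the scale outside mitochondrial transcripts, 72.3% of them stood above both. No share over all genes was computed on that scale, or for genes below both. The same library held the melanocyte markers at 27.0% of their untreated B16F10 level, and the 43 genes stood at a median of 44.4% of their untreated B16F10 level there, against 24.3% in untreated T cells. Of the 12624 genes with at least 50 mean counts in untreated B16F10, 44.9% stood above both untreated T cell libraries in it. It had 12.8 M counts over 44225 detected genes, where the other 8 libraries had 22855 to 25907 genes detected, and 182 counts of the 11 interferon genes, where the others had 0 to 28. The part of these features in the values of the 43 genes was not tested.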

How the data were processed

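RNA was measured by sequencing in 9 libraries. The authors deposited whole-number read counts per gene for each library, made with STAR 2.7.1a and featureCounts 1.6.0 on genome build mm10, with FastQC 0.11.8 for read quality, per the submitters' processing notes. The annotation release, the strand setting and the handling of reads with several matches were not given in the sources used here. The authors also deposited a B16F10 table of log2 fold changes and adjusted p-values, used only to set calls side by side; DESeq2 1.22.2 is named in the submitters' processing notes. Symbols came from that deposited table, joined by Ensembl ID, and coordinates from GENCODE M21 (GRCm38).

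Counts were tested with edgeR 4.0.16 in R 4.3.3 (filterByExpr, TMM scaling, robust quasi-likelihood fit, Benjamini-Hochberg adjustment over all genes tested, threshold 0.05), 3 against 3 libraries for HOCl in B16F10 and 3 against 2 for untreated B16F10 against untreated T cells. SE is the size of the log2 fold change over the square root of F. CPM, counts per M of a library's gene counts, were computed without TMM. A gene at 0 was given a floor of 3 counts per library, and totals of 12.8 to 61.3 M counts set that floor at 0.0489 to 0.234 CPM, covering counting error only. DESeq2 1.42.0, other scalings and filters, 1 fit of all libraries, a replicate block and leaving out each library were tried. The test was checked on simulated counts.

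The 43 genes and the pathway lists were chosen with earlier results of these data known. A gene of the JAK-STAT list is not reported here and is left out of its counts. Values were given for every sensor, receptor chain and transcription factor, for the members with the largest and smallest change in each effector family, for up to 3 genes per direction in each pathway list, and for Jak1, Tyk2, Irf1, Tbk1 and Eif2ak2; other effectors with values in each library were added after seeing the data. Promoters came from RefSeq, 1 per family with an ISRE core (that of the lowest log2 fold change), and Ifit3b was added after seeing the data. No pair of libraries in a group agreed within sampling noise (chi-square per degree of freedom 3.91 to 25.9 in B16F10 and 447 in T cells).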

Additional observations from a re-analysis of the deposited data

Results flagged for a closer look

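For 26 of the 43 genes the library labelled T cell HOCl lay on the opposite side to treated B16F10. All 3 treated B16F10 libraries lay on one side of the untreated ones. The T cell library lay on the opposite side of both untreated T cell libraries, on the scale of all counts and on that of counts outside mitochondrial transcripts. The difference was not tested, since that arm is 1 library. Among the sensors, which fell in B16F10, the log2 ratio of its CPM to the mean of the untreated T cell libraries was 4.48 for Tlr3, 2.18 for Dhx58, 1.63 for Ifih1 and 1.30 for Zbp1. The receptor chains, whose treated B16F10 values lay above the untreated ones though only Ifnar1 passed, stood lower there, with -1.81 for Ifnar1 and -1.60 for Ifnar2. Viperin and its partner stood highest among genes counted in untreated T cells, with 4.80 for Rsad2 and 4.55 for Cmpk2, and Ifi44, at 0 in those libraries, was higher by at least 6.80 on the log2 scale against a floor of 3 counts. IFIT genes gave 3.68 (Ifit1), 2.03 (Ifit3b) and 1.37 (Ifit3). OAS and Mx genes gave 3.02 (Oas1a), 3.00 (Oas2), 2.53 (Oasl1), 1.75 (Oasl2), 3.19 (Mx2) and 1.99 (Mx1). The remaining effectors gave 2.90 (Parp12), 2.81 (Lgals3bp), 2.68 (Isg15), 2.24 (Rtp4), 2.06 (Usp18), 1.87 (Xaf1), 1.55 (Bst2) and 1.04 (Ifi27). Rsad2, Tlr3, Ifit1, Cmpk2 and Ifi44, with the highest ratios, stood there at 26.9%, 30.2%, 40.9%, 54.4% and 86.5% of their untreated B16F10 level. The library held melanocyte markers at 27.0% of their untreated B16F10 level and 37.4% mitochondrial counts. It had 44225 genes detected at 12.8 M counts, against 22855 to 25907 in the other libraries, and 182 counts of interferon genes against 0 to 28. Its B cell markers summed to 132 CPM against 20.5 and 29.3 CPM in the untreated T cell libraries, and its macrophage markers to 52.9 against 16.3 and 12.3 CPM. Its dendritic cell markers summed to 108 against 62.8 and 55.6 CPM, and its fibroblast markers to 157 against 584 and 326 CPM. The dendritic cell list includes Ccr9 and the fibroblast list Thy1, and a sum does not show which gene carries it. In each untreated T cell library 2 of the 6 fibroblast markers were at 0. There were 2751 genes with at least 50 mean counts whose treated B16F10 values all lay below the untreated ones. Of these, 56.2% stood above both untreated T cell libraries in the library labelled T cell HOCl (72.3% outside mitochondrial counts). The share of all genes at that depth was 44.9% on the scale of all counts. What part these features have in the 26 values was not tested. Of the 26 genes, 24 were among the 35 lower in treated B16F10. The other 2, the receptor chains, had all treated B16F10 values above the untreated ones, though Ifnar2 did not pass the test. No share over all genes was computed for both scales at once, or for genes higher in treated B16F10.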

How the results depend on the processing

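For HOCl in B16F10, 37 of the 43 genes were called, and 36 to 38 when any 1 library was left out (34 to 36 lower, 2 higher), with a median log2 fold change between -0.63 and -0.54 in all settings. With all 9 libraries in 1 fit, which shares 1 spread with the T cell libraries, 9 genes were called, 9 lower and 0 higher (Oasl2, Usp18, Dhx58, Cmpk2, Rtp4, Parp9, Ifit3, Ifit3b and Ifit1); at an unadjusted p under 0.05 in edgeR that fit gave 30 lower and 1 higher, and all genes called went from 4544 to 37. In that fit other interferon-stimulated genes went from 29 lower to 1, JAK-STAT genes from 4 called to 0 and adaptors from 8 to 0. Without HOCl replicate 3 all genes called were 3015 and JAK-STAT genes 2. For untreated B16F10 against T cells, 36 were called and 34 to 41 over the settings. Samd9l turned to 0.73 and Traf3 to 0.66 without T cell replicate 1 (Samd9l ranged from -1.42, and Traf3 from -0.40, over fits without 1 library). In the T cell HOCl library, the genes below both untreated libraries went from 14 to 8 on the scale outside mitochondrial counts. The cause of these moves was not tested.

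Replicate numbers did not pair the B16F10 libraries (correlations of same-numbered deviations 0.0435, -0.00579 and 0.00761). A replicate block gave 37 calls for HOCl (35 lower, 2 higher) and 34 between the cell types (25 higher, 9 lower), where Ifit2 (adjusted p = 0.0860) and Trim25 (0.0647) in edgeR were lost and adaptors went from 11 calls to 6. Oas3, Epsti1 and Zbp1 in B16F10 stood at few CPM, which limits their precision.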
